A study of Homo sapiens with 12 samples.

Results

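The BCL2 family decides at the outer mitochondrial membrane whether a cell enters apoptosis. Its pro-survival proteins (BCL2, BCL2L1 and MCL1) hold the effectors BAX and BAK1 in check, and the effectors, once free, assemble into pores that release cytochrome c. The BH3-only proteins (BID, BAD, BBC3, PMAIP1 and BCL2L11) sense damage or stress and either occupy the groove of the pro-survival proteins or act on the effectors directly. Hepatocytes depend on BCL2L1 and MCL1, and liver cancers often raise one or the other. The 10 genes were found by their symbols among the 60666 genes of the deposited Huh7 table, and 9 of them were abundant enough to be tested.

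Huh7 is a human hepatocellular carcinoma (HCC) line. It was stably transduced with a lentivirus that carried either a control sequence or a short hairpin RNA against FAM111B (shFAM111B), a nuclear serine protease, and infected cells were selected with puromycin. Poly(A) RNA was sequenced in 3 control and 3 shFAM111B libraries, and 1 hairpin was analysed against 1 control, so an effect of FAM111B loss and an effect of this hairpin or of the 2 cell populations cannot be told apart. The Hep3B libraries of the same series were not analysed here. Nothing in the labels says that the 3 libraries of a group came from separate cultures, so the p-values measure the spread between these libraries. Apart from the puromycin selection, no drug treatment of these cells was stated.

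The sequence of the hairpin is shown because every comparison rests on it. It matched chr11:59124545-59124563 of GRCh38 on the forward strand, inside FAM111B, and no transcript of another annotated gene held the whole 19-base target.
shFAM111B target: ctgcctagtgattctcatt

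FAM111B itself (ENSG00000189057, chr11:59107185-59127410) read 7.84, 8.29 and 7.99 TPM (transcript counts scaled for length and for the library total) in the control libraries and 0.96, 1.13 and 0.84 TPM in the shFAM111B libraries. Its mean was 8.23-fold lower, and the groups did not overlap, which goes with the labels. None of the 10 members held the full target. The 7-base seed of the hairpin occurred once in the longest transcripts of BCL2 and PMAIP1 and in no other member, while 28.8% of the 14251 tested genes with an annotated transcript held it.

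All 9 liver markers passed the filter of at least 1 TPM in at least 3 libraries, with AFP the most abundant, and their summed level was 27329 to 27903 TPM in control and 40692 to 45672 TPM in shFAM111B. Of these markers 3 rose and 6 fell. AFP (log2 fold change 1.66, from a mean of 7274 to 23062 TPM), APOA1 (1.11) and TTR (1.04) rose, and APOB (-2.27), HNF4A (-1.25), FGB (-0.73), ALB (-0.63), TF (-0.56) and SERPINA1 (-0.29, above 0 under 3 of the 5 other scalings) fell. The part of these shifts in the results on the BCL2 family was not tested. Of the markers of blood, endothelial cells and fibroblasts, PTPRC, CD3E, VWF, CDH5, COL1A1 and ACTA2 did not pass the filter. CD68 was the most abundant blood marker at 15.0 to 17.6 TPM in control and 21.9 to 23.4 TPM in shFAM111B. PECAM1 led the endothelial markers at 1.26 to 2.28 TPM in control and 2.12 to 3.49 TPM in shFAM111B. COL1A2 led the fibroblast markers at 5.39 to 7.98 TPM in control and 8.11 to 11.96 TPM in shFAM111B, and PDGFRB stood at 1.60 to 2.39 and 2.14 to 4.45 TPM. CD68 and COL1A2 passed the test (limma adjusted p = 0.0016 and 0.0288), and the part of these markers in the results was not tested. In bulk RNA, fewer cells with a transcript and less of it per cell cannot be told apart.

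TPM are shares of a library, so a large change in a few abundant genes moves all others. Transcripts encoded by mitochondrial DNA took 20.2, 20.2 and 19.7% of the listed TPM in control and 7.82, 8.06 and 7.37% in shFAM111B. The 17 5S ribosomal RNA genes were listed at 0 in control and summed to 22970, 33059 and 1486 TPM in shFAM111B replicates 1, 2 and 3. The part of either in the results was not tested. Over the 14394 tested genes the median log2 fold change was -0.36, and each member is therefore also given relative to that median gene.

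Against this background the family moved in both directions. Differences were fitted with limma on log2(TPM + 1), a scale that understates the change of genes near 1 TPM. A call required a 2-fold difference with P under 0.05, the limits of the study. By these limits BAD was higher (1 member, against 6.82% of all tested genes), and MCL1 and PMAIP1 were lower (2 members, against 23.7%). This fit called 981 genes higher and 3409 lower. The study reported nearly equal numbers for Huh7 at the same limits, so the shares given here belong to the fit used here. At an adjusted p under 0.05 without a fold limit, BAX and BAD rose (2 members, against 21.1% of tested genes), 6 members fell (against 50.9%) and BAK1 did not pass. Every shFAM111B library was above every control library for 2 members (22.5% of tested genes) and below for 7 (52.8%). The median member changed by -0.42, close to the median gene. The shares of the 9 tested members that were called were thus near those of all genes, and the members furthest from the median gene were PMAIP1, BAD, MCL1 and BAX.

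**Figure D1:**
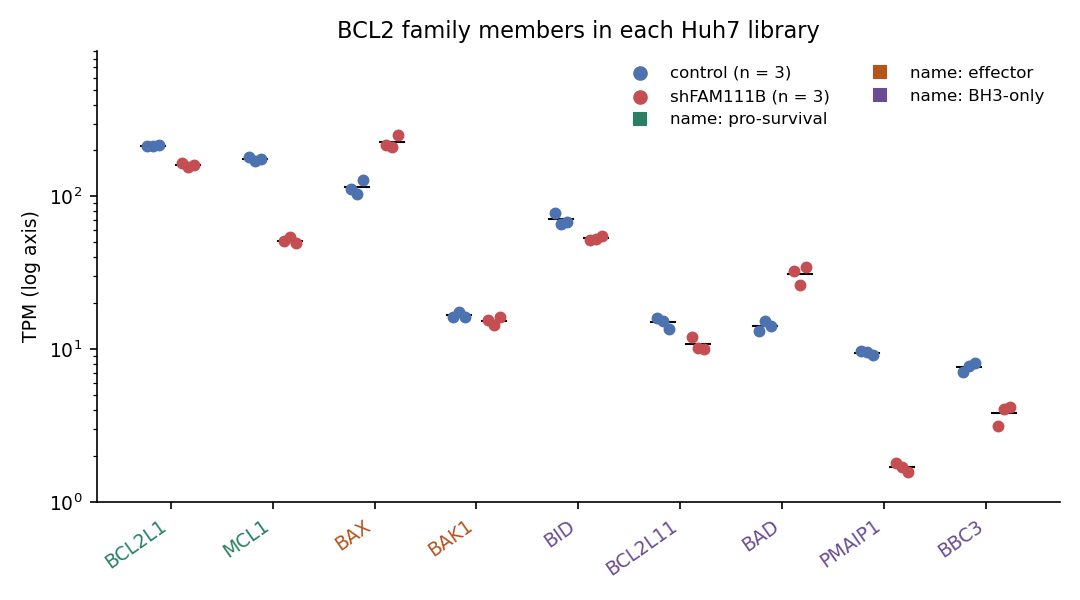
TPM (log axis) of the 9 tested members in each of the 3 control and 3 shFAM111B libraries, 1 point per library, with the group mean as a line and names coloured by role. MCL1 and PMAIP1 sit far below their controls and BAX and BAD above, while BCL2, at 0.01 TPM or less in every library, is left out.

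Of the pro-survival members, BCL2 (ENSG00000171791, chr18:63123346-63320128), the founder of the family, was almost not transcribed in this line. It was listed at 0.01, 0.01 and 0 TPM in control and at 0 in the 3 shFAM111B libraries, and it was not tested. Of the listed pro-survival members, BCL2L1 and MCL1 therefore made up this arm at the RNA level.

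MCL1 (ENSG00000143384, chr1:150574551-150579738) encodes a short-lived protein that binds BAK1 and most BH3-only proteins. It measured 181, 171 and 175 TPM in control and 50.9, 53.9 and 49.3 TPM in shFAM111B. Every shFAM111B library lay below every control library, and the gap was many times the spread within a group. The mean was 3.42-fold lower, with a log2 fold change of -1.76 (SE 0.053, limma adjusted p = 2.05e-06). Relative to the median gene it was -1.39, and 5.37% of the tested genes had a fold change as low or lower.

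BCL2L1 (ENSG00000171552, chr20:31664452-31723989), which encodes BCL-XL, was the most abundant member in control cells. It measured 215, 213 and 217 TPM there and 167, 156 and 160 TPM in shFAM111B. The groups did not overlap, and the difference was 1.34-fold (log2 fold change -0.42, SE 0.043, limma adjusted p = 0.000107). That was within 0.06 of the median gene, at -0.05 relative to it, and the direction turned under 2 of the 5 other scalings of the libraries. With quantile normalization BCL2L1 was at -0.55, which is -0.52 relative to that median gene.

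Among the effectors, BAX (ENSG00000087088, chr19:48954815-48961798) is a cytosolic protein that moves to mitochondria when activated. It measured 112, 104 and 128 TPM in control and 216, 211 and 254 TPM in shFAM111B. All 3 shFAM111B libraries were above all controls. The mean rose 1.98-fold (log2 fold change 0.98, SE 0.099, limma adjusted p = 9.99e-05), which was 1.34 above the median gene. It stood just under the 2-fold limit and passed it when control replicate 3, shFAM111B replicate 1 or shFAM111B replicate 2 was left out, up to 1.06 on the log2 scale.

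BAK1 (ENSG00000030110, chr6:33572547-33580293), the effector that resides in the mitochondrial membrane and that MCL1 restrains, measured 16.4, 17.4 and 16.3 TPM in control and 15.5, 14.5 and 16.2 TPM in shFAM111B. The lowest control and the highest shFAM111B library were 0.1 TPM apart. Its log2 fold change of -0.11 (SE 0.074) did not pass the test (limma adjusted p = 0.213), with TPM as deposited. It passed under each of the 5 other scalings, above 0 in 4 of them (0.28 to 0.42) and below 0 with the nuclear-coding rescale (-0.23). The effectors thus went from a BAX level that was several times that of BAK1 to a wider gap between them.

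The BH3-only members differed most among themselves. PMAIP1 (ENSG00000141682, chr18:59899948-59904306) encodes NOXA, which binds MCL1 and promotes its breakdown. It measured 9.77, 9.51 and 9.21 TPM in control and 1.80, 1.70 and 1.57 TPM in shFAM111B. The groups were wide apart, and the libraries of each group lay close together. Its mean was 5.62-fold lower, and its log2 fold change of -1.96 (SE 0.1002, limma adjusted p = 5.77e-06) was the lowest in the family, with 3.27% of tested genes as low or lower.

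BBC3 (ENSG00000105327, chr19:47220822-47232766) encodes PUMA, which binds all pro-survival members. It measured 7.08, 7.75 and 8.05 TPM in control and 3.13, 4.08 and 4.17 TPM in shFAM111B. No shFAM111B library reached a control library. The log2 fold change was -0.85 (SE 0.125, limma adjusted p = 0.00066). It was -0.49 relative to the median gene, and with the library medians subtracted it no longer passed (-0.32, limma adjusted p = 0.0542).

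BAD (ENSG00000002330, chr11:64269830-64284704), whose protein is held by 14-3-3 proteins when phosphorylated and binds BCL-XL when not, was the only one of the 5 BH3-only members that rose. It measured 13.2, 15.3 and 14.1 TPM in control and 32.6, 26.2 and 34.8 TPM in shFAM111B. Every shFAM111B library was above the controls. The mean rose 2.19-fold (log2 fold change 1.07, SE 0.117, limma adjusted p = 0.000146). Without shFAM111B replicate 3 the log2 fold change was 0.99, just under the 2-fold limit. GPR137, which overlaps BAD on the other strand, read 6.98, 8.09 and 8.28 TPM in control and 18.1, 13.7 and 17.5 TPM in shFAM111B. The sources used here do not say whether strand was used in counting, and without it reads of the overlapping stretch cannot be told apart.

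BID (ENSG00000015475, chr22:17734138-17774770) links death receptors to mitochondria after it is cut by caspase-8. It was the most abundant BH3-only member, with 77.6, 66.3 and 68.0 TPM in control and 52.2, 52.8 and 55.1 TPM in shFAM111B. The groups did not overlap. The log2 fold change was -0.40 (SE 0.071, limma adjusted p = 0.00183), which is -0.03 relative to the median gene.

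BCL2L11 (ENSG00000153094, chr2:111119378-111168447) encodes BIM, which can activate the effectors directly. It measured 16.02, 15.4 and 13.4 TPM in control and 12.1, 10.2 and 10.1 TPM in shFAM111B, again without overlap. Its log2 fold change of -0.44 (SE 0.105, limma adjusted p = 0.00757) was also that of the median gene, at -0.08 relative to it. MIR4435-2HG, which overlaps it on the other strand, was far more abundant, at 92.4 to 113 TPM in control and 130 to 144 TPM in shFAM111B.

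Under 5 other scalings of the libraries, 5 members kept their direction and 4 did not. MCL1 stayed between -1.89 and -1.22, PMAIP1 between -2.15 and -1.43, BAX between 0.85 and 1.51, BAD between 0.96 and 1.60, and BBC3 between -0.99 and -0.32. BCL2L1, BID, BCL2L11 and BAK1 crossed 0. The scaling also decided how many genes of the transcriptome counted as higher, since 22.3% of all 2-fold calls were higher as deposited, 53.03% with median-of-ratios factors, 49.9% with upper-quartile factors, 47.8% with quantile normalization, 11.6% with TPM rescaled to nuclear protein-coding genes and 66.6% after subtraction of each library's median.

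**Figure D2:**
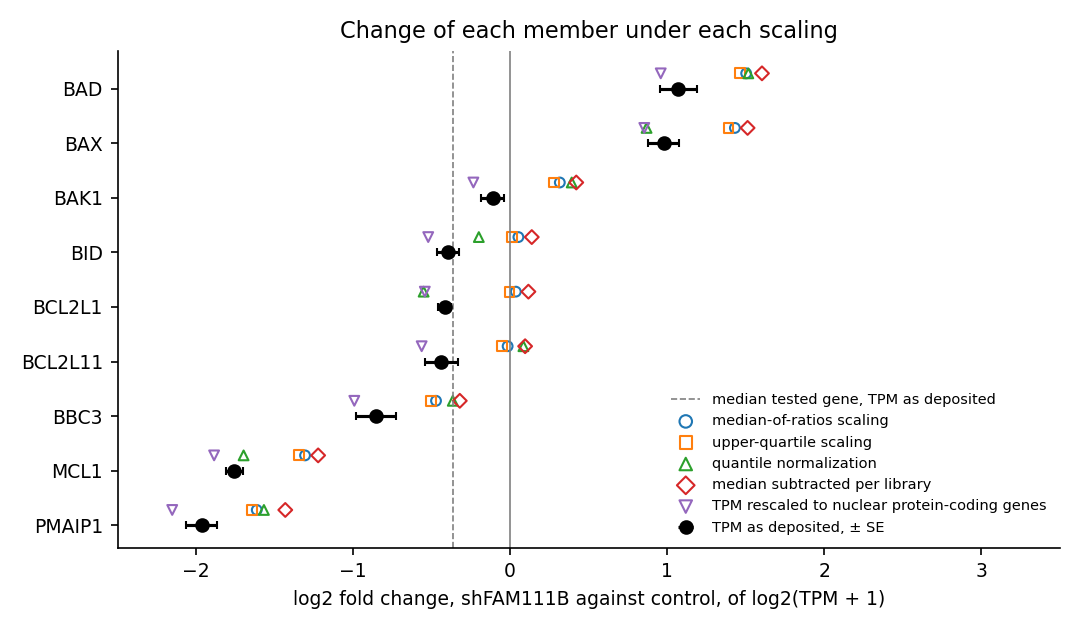
log2 fold change of each tested member, shFAM111B against control, with TPM as deposited (black, ± SE, n = 3 per group) and under 5 other scalings (open symbols), and the median of all tested genes as a dashed line. PMAIP1, MCL1 and BBC3 stay below 0 and BAX and BAD above 0 under each scaling shown, and the other 4 members cross 0.

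The order of the levels changed accordingly. In control cells it was BCL2L1, MCL1, BAX, BID, BAK1, BCL2L11, BAD, PMAIP1 and BBC3, with BCL2 last, and of these neighbours only BCL2L11 and BAD overlapped between libraries. In shFAM111B cells it was BAX, BCL2L1, BID, MCL1, BAD, BAK1, BCL2L11, BBC3 and PMAIP1, with BCL2 last, and only BID and MCL1 overlapped. BAX went from 18.0% to 40.9% of the summed TPM of the family, MCL1 from 27.5% to 9.25%, and BCL2L1 from 33.6% to 28.9%. The family as a whole summed to 639 ± 16.9 TPM in control and 556 ± 27.6 TPM in shFAM111B (SD, n = 3), an order that turned with median-of-ratios factors (546 ± 12.3 and 650.4 ± 26.4).

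Ratios of TPM within a library are not moved by a factor applied to the whole library. Quantile normalization and the removal of a length and expression trend, given below for single members, treat genes unequally and can move them. No ratio was computed under either. The summed pro-survival TPM was 391 ± 6.51 in control and 212 ± 4.60 in shFAM111B, and the summed effector TPM was 131 ± 11.5 and 243 ± 24.3 (SD, n = 3). The sums and ratios are of gene totals, which do not separate the splice forms of a gene. Pro-survival to effector transcripts stood at 3.09, 3.15 and 2.72 in control and at 0.939, 0.930 and 0.773 in shFAM111B. Effector transcripts were therefore the minority in each control library and the majority in each shFAM111B library, a 3.40-fold lower ratio. The ratios are given as a description, without a test. An exact permutation test of 3 against 3 libraries could not give a p below 0.1.

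The BH3-only sum was 124, 114 and 113 TPM in control and 102, 94.9 and 106 TPM in shFAM111B. It was lower in every shFAM111B library with TPM as deposited. With median-of-ratios factors, tried after these values were seen, it was higher in every shFAM111B library (99.9 ± 5.03 and 118 ± 5.63, SD, n = 3), while the pro-survival and effector sums kept their directions. Pro-survival to BH3-only transcripts went from 3.35 ± 0.137 to 2.11 ± 0.119, and pro-survival to all 7 pro-death transcripts from 1.57 ± 0.0492 to 0.621 ± 0.0565 (SD, n = 3). The groups did not overlap in either ratio. With BCL2L1 and BID, the most abundant member of each side, left out, the log2 change of pro-survival to BH3-only transcripts was -1.81 in place of -0.67.

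Of the binding pairs, BCL2L1 to BAX went from 1.88 ± 0.174 to 0.712 ± 0.0749 and BCL2L1 to BAD from 15.2 ± 1.19 to 5.23 ± 0.692. MCL1 to BAK1 went from 10.6 ± 0.673 to 3.36 ± 0.339, and MCL1 to BCL2L11 from 11.8 ± 1.06 to 4.80 ± 0.548. Each of these 4 ratios was lower in every shFAM111B library than in any control library. MCL1 to PMAIP1 went the other way, from 18.5 ± 0.550 to 30.5 ± 1.89. The PMAIP1 transcript fell further than that of MCL1, the partner its product inhibits. PMAIP1 was near the filter in shFAM111B, and with 1 TPM added to both terms the log2 change of that ratio shrank from 0.72 to 0.21. With quantile normalization the order of the pair turned, with MCL1 at a log2 fold change of -1.70 and PMAIP1 at -1.57. Among the pairs looked at after the member values were known, MCL1 to BAX went from 1.54 ± 0.148 to 0.228 ± 0.0312, and MCL1 to BCL2L1 from 0.818 ± 0.0231 to 0.320 ± 0.0219 (SD, n = 3).

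**Figure D3:**
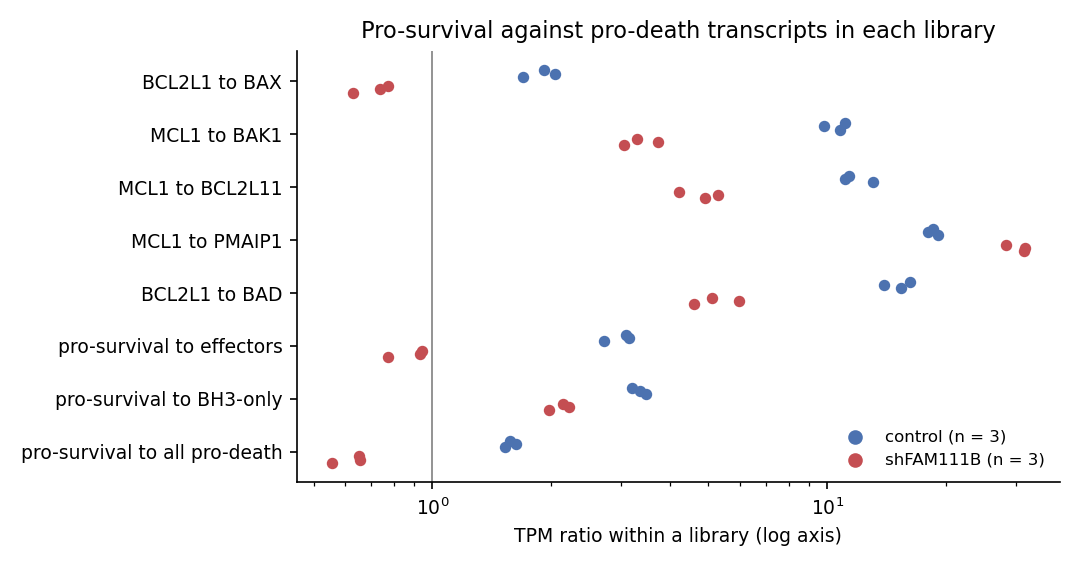
TPM ratios within each library (log axis) for 5 binding pairs and 3 sums, 1 point per library, 3 control and 3 shFAM111B, with a line at a ratio of 1. All but MCL1 to PMAIP1 are lower in shFAM111B, and pro-survival to effectors falls from 2.72 to 3.15 in control to 0.773 to 0.939 in shFAM111B.

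Transcript length separated genes in this comparison, and it separated part of the family. Tested genes whose longest annotated transcript was 1000 to 2000 nt had a median log2 fold change of 0.17, those of 2000 to 3000 nt -0.20, those of 3000 to 4000 nt -0.49 and those over 6000 nt -0.93. BAD and BAX, the members that rose, have the shortest longest-annotated transcripts of the 10 members (1157 and 1358 nt), in a class of which 11.5% was called higher. BBC3 and PMAIP1 are of the same class (1838 and 1948 nt) and fell, where 6.89% of the class was called lower. MCL1 (3932 nt) was in a class of which 25.6% was called lower, and its log2 fold change was at the 5th percentile of that class (-1.74).

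With a trend on length and expression level removed, MCL1 stood at -1.35, PMAIP1 at -1.89, BBC3 at -0.81, BAX at 0.64 and BAD at 0.78. BCL2L11, which has the longest transcript of the tested members (5231 nt), turned from -0.44 to 0.43. The longest annotated transcript need not be the one expressed, and whether RNA quality or library preparation had a part in the length trend was not tested.

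The promoter windows of the 3 members with a RefSeq window that moved furthest are printed to show what they share. Each runs over the 250 bases before the RefSeq start of the gene (GRCh38.p14), 5′ to 3′ on the strand of the gene, with matches, on either strand, to the CCAAT box, to the TGACGT core and to the E-box CACGTG in capitals. The BAX window is chr19:48954625-48954874 on the forward strand, the PMAIP1 window chr18:59899746-59899995 on the forward strand and the BAD window, upstream of the first of its 2 starts, chr11:64284705-64284954 on the reverse strand. MCL1 is named only.
BAX: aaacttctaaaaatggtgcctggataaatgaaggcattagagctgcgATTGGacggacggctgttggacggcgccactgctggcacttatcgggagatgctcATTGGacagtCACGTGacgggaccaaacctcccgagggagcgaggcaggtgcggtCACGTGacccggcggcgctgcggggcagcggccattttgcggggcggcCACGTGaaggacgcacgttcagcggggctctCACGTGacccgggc
PMAIP1: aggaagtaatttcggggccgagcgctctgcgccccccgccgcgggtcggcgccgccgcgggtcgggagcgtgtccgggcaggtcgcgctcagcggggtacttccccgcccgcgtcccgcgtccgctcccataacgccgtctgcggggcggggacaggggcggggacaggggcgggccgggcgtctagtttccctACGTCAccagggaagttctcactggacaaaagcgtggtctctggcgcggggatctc
BAD: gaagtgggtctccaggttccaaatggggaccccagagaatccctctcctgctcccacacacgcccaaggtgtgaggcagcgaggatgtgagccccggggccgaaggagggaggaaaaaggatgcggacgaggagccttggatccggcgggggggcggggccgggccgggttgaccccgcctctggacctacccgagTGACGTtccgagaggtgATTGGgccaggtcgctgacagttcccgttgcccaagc

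The BAX window held 4 copies of CACGTG, the E-box bound by MYC and USF proteins, at 138, 93, 45 and 14 bases before the start, and 2 copies of CCAAT, the NF-Y motif. Of the 35116 windows of the table, 6.34% held CACGTG at all and 5 (0.0142%) held as many copies. The motif was also in the windows of BBC3 and BID, which fell, and so in 3 of the 9 members with a window. TGACGT, the core of the CRE and ATF sites, was in the windows of PMAIP1 and BAD, which moved in opposite directions, and in 7.10% of all windows. Of the 9 members with a window, CCAAT was in 5 (32.0% of all windows), the GC box GGGCGG in 6 (42.6%) and TATAAA in 1, BCL2L1 (10.7%). A member was counted when any of its windows held the motif, and BID, BAD and BCL2L1 have several. The shares are of single windows, so the counts and shares are not on the same unit. These matches are descriptions of letters and say nothing of binding in Huh7.

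The rest of the family and the pathway around it were described from fixed lists by counts, beside the shares of all tested genes given above. Of 13 further BCL2 family genes, BCL2A1, BCL2L10, BCL2L15 and HRK did not pass the filter, and of the 9 tested none was called higher, 2 were called lower, 3 rose and 5 fell at an adjusted p under 0.05. Under 4 of the 5 other scalings 1 was called higher and 1 lower. BMF, a BH3-only gene tied to the cytoskeleton, measured 31.6, 30.3 and 33.0 TPM in control and 9.20, 9.25 and 8.89 TPM in shFAM111B, a log2 fold change of -1.69 (limma adjusted p = 3.15e-06). BCL2L13, a mitophagy receptor, changed by -1.34 (limma adjusted p = 1.59e-05). Both were below 0 under each of the 5 other scalings.

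The pro-survival BCL2L2, which encodes BCL-w, went from 10.3 to 4.80 TPM (log2 fold change -0.97, limma adjusted p = 0.000277). A readthrough gene with PABPN1 overlaps it on the same strand, so its reads are uncertain, and it passed 2-fold without control replicate 2, shFAM111B replicate 1 or shFAM111B replicate 2 (down to -1.02). BNIP3 changed by -0.77 (limma adjusted p = 2.41e-05) and BNIP3L by -0.37 (limma adjusted p = 0.0119), both receptors for mitophagy, the first with many annotated pseudogene copies and the second above 0 under 4 of the 5 other scalings. BIK, a BH3-only gene of the endoplasmic reticulum, rose by 0.69 from a mean of 2.42 to 4.50 TPM (limma adjusted p = 0.00176). BOK, an effector-like gene, changed by 0.26 (limma adjusted p = 0.0162), and BCL2L12, the most abundant gene of the list at 88.7 TPM in control, by 0.25 (limma adjusted p = 0.00996). IRF3 overlaps BCL2L12 on the other strand and went from 52.1 to 103 TPM, so the reads of BCL2L12 are uncertain as well. BCL2L14, at 0.933 and 1.33 TPM, had a log2 fold change of 0.26 that did not pass (limma adjusted p = 0.139) as deposited. It passed under 4 of the 5 other scalings, up to 0.80. BCL2L14 read 0.97, 0.82 and 1.01 TPM in control and passed the filter only through the shFAM111B libraries, so these tests are no support for a rise.

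Downstream of the mitochondrion, none of the 12 apoptosome and caspase genes described was called higher and 2 were called lower, while 3 rose and 5 fell at an adjusted p under 0.05. Under 4 of the 5 other scalings 1 was called higher and 1 lower. APAF1, the scaffold of the apoptosome, went from 10.5 to 2.79 TPM (log2 fold change -1.62, limma adjusted p = 4.77e-05). The initiator CASP2 changed by -1.35 (limma adjusted p = 6.31e-05). Cytochrome c (CYCS), the protein that the pores release, was the most abundant at 196 and 156 TPM (log2 fold change -0.33, limma adjusted p = 0.00507), and its direction turned under 3 of the 5 other scalings. The list held genes that rose as well as genes that fell, and its median was -0.14.

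The inhibitors of apoptosis, which block caspases or mark them for breakdown, were 5 genes, all tested. BIRC3 (cIAP2) measured 25.1, 21.7 and 25.0 TPM in control and 2.24, 2.08 and 2.02 TPM in shFAM111B. Its log2 fold change of -2.997 (SE 0.097, limma adjusted p = 2.46e-06) was larger in size than that of any of the 10 members. BIRC6 changed by -1.49 (limma adjusted p = 9.40e-06) and XIAP, a direct inhibitor of caspases, by -1.19 (limma adjusted p = 0.000168). BIRC5 (survivin), a gene of dividing cells and the most abundant of the list, rose from 38.4 to 58.5 TPM (log2 fold change 0.60, limma adjusted p = 6.11e-05). In all, 3 were called lower, 4 fell and 1 rose, and each kept its direction under the 5 other scalings. The number called lower was 2, 2, 1, 1 and 4 and the number called higher 1, 1, 0, 1 and 0 under median-of-ratios, upper-quartile, quantile, median-subtracted and nuclear-coding values.

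In the death receptor arm, which reaches the BCL2 family through caspase-8 and BID, 9 of 10 genes were tested and FAS did not pass the filter. TNFRSF10B, which encodes the TRAIL receptor DR5 and was the most abundant of the list, measured 111, 115 and 109 TPM in control and 19.6, 20.7 and 20.7 TPM in shFAM111B. Its log2 fold change was -2.399 (SE 0.053, limma adjusted p = 1.20e-06), without overlap of the groups. CASP8 changed by -1.54 (limma adjusted p = 0.000115) and RIPK1, the kinase of the receptor complex, also by -1.54 (limma adjusted p = 7.12e-06). In all, none was called higher and 3 lower, and 2 rose and 6 fell at an adjusted p under 0.05. Under median-of-ratios, upper-quartile, quantile and median-subtracted values 1, 1, 1 and 2 were called higher, and of the 9 genes 4 were below 0 and 2 above 0 under all 5 other scalings.

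Of the 11 membrane and cytosolic partners, 1 was called higher and 2 lower, and 2 rose and 8 fell. Under median-of-ratios, upper-quartile, quantile, median-subtracted and nuclear-coding values the number called lower was 1, 1, 4, 0 and 4, and the number called higher was 2, 2, 2, 2 and 0. MTCH2, the mitochondrial receptor of truncated BID and an insertase of the outer membrane, went from 96.7, 90.7 and 99.0 TPM to 210, 183 and 223 TPM (log2 fold change 1.09, SE 0.079, limma adjusted p = 2.21e-05). Of the 14-3-3 genes, whose proteins hold phosphorylated BAD, YWHAG changed by -1.49 (limma adjusted p = 3.87e-06) and YWHAZ by -1.18 (limma adjusted p = 7.44e-06). YWHAE, the most abundant, was at 427 and 404 TPM and did not pass with TPM as deposited (log2 fold change -0.08, limma adjusted p = 0.145), but passed under the 5 other scalings, from -0.43 to 0.45 and above 0 in 3. Of the other 14-3-3 genes, YWHAQ (-0.99), YWHAH (-0.86) and YWHAB (-0.29, above 0 under 3 of the 5 other scalings and 0.25 with the length and expression trend removed) fell, and SFN rose by 0.89 (limma adjusted p = 0.000908).

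The genes that control the turnover of MCL1 protein all fell with TPM as deposited (6 of 6), with 4 called lower. The number called lower was 1, 1, 0, 0 and 4 under median-of-ratios, upper-quartile, quantile, median-subtracted and nuclear-coding values, although all 6 stayed below 0. USP13 passed an adjusted p under 0.05 in 1, HUWE1 in 2 and BTRC in 4 of these 5 scalings. FBXW7, a ligase that marks MCL1 for breakdown, changed by -1.46 (limma adjusted p = 0.000127) and MARCHF5, a mitochondrial ligase, by -1.31 (limma adjusted p = 7.00e-05). USP9X, a protease that removes ubiquitin from MCL1 and so stabilises it, changed by -1.33 (limma adjusted p = 8.22e-05) and USP13, of the same activity, by -1.14 (limma adjusted p = 0.0142), which was -0.86 without control replicate 2 and -0.93 without shFAM111B replicate 1, under the 2-fold limit. HUWE1, also a ligase for MCL1 and the most abundant, went from 53.8 to 34.2 TPM (log2 fold change -0.64, limma adjusted p = 0.000926). The list thus held genes that stabilise and genes that break down MCL1. Their longest transcripts are long, with a median of 7229 nt, and with the length and expression trend removed MARCHF5 stood at -0.62, FBXW7 at -0.57, USP9X at -0.30, USP13 at -0.16, BTRC at -0.01 and HUWE1 at 0.09.

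Among the 4 tested transcription factors described that act on the family, 1 was called higher and 1 lower, and 2 rose and 2 fell. FOXO3, which drives BCL2L11 and BBC3, measured 7.17, 7.36 and 6.87 TPM in control and 2.56, 2.38 and 2.41 TPM in shFAM111B (log2 fold change -1.24, limma adjusted p = 3.25e-05). It was below 0 under each of the 5 other scalings. ATF4, a stress factor that can drive PMAIP1 and the most abundant of the list, went from 512 to 458 TPM (log2 fold change -0.16, limma adjusted p = 0.0284) and turned direction under 3 of the 5 other scalings.

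DDIT3, which encodes the stress factor CHOP, measured 18.8, 19.7 and 18.3 TPM in control and 76.5, 67.3 and 81.5 TPM in shFAM111B (log2 fold change 1.93, SE 0.082, limma adjusted p = 3.56e-06). Its values are uncertain in part, since AC022506.1 overlaps it on the same strand and was listed at 0 in the 3 control libraries and at 61.1, 0 and 158 TPM in shFAM111B. In shFAM111B replicate 2, where AC022506.1 was at 0, DDIT3 was still above every control library. E2F1 rose by 0.28 (limma adjusted p = 0.0123). DDIT3, whose product can raise TNFRSF10B, rose while TNFRSF10B fell.

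Removal of the length and expression trend moved the called genes of these lists toward 0, MTCH2 excepted. It took XIAP to -0.19, BIRC6 to -0.52 and BIRC3 to -2.13 among the inhibitors of apoptosis. CASP2 stood at -0.43 and APAF1 at -0.68, BCL2L13 at -0.66 and BMF at -0.91. FOXO3 was left at -0.33, while DDIT3 stood at 1.54. In the death receptor arm RIPK1 stood at -0.80, CASP8 at -1.07 and TNFRSF10B at -1.85, and among the partners YWHAZ stood at -0.84, YWHAG at -1.03 and MTCH2 at 1.22.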

How the data were processed

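RNA sequencing of poly(A) RNA from 3 Huh7 control and 3 Huh7 shFAM111B libraries was analysed. The authors deposited TPM per gene and library; the labels' processing notes name RSEM, DESeq2 and hg38 without roles. The authors' deposited table also holds their own fold change (a ratio), its log2 and p-values, which were not used. Strand use in counting is not given in the sources used here. The labels name a stranded mRNA kit and the paper a TruSeq kit. TPM keep no depth, so the depth behind each value is unknown and no count test was run.

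The 14394 genes that reached 1 TPM in 3 or more libraries were compared as log2(TPM + 1) with lmFit and eBayes with a trend in limma 3.58.1 under R 4.3.3, without covariates, and p-values were Benjamini-Hochberg adjusted over all tested genes. The fit was run on simulated data without a shift of whole libraries or a length trend, so that check does not bear on either. Called means a fold of at least 2 and P under 0.05; rose or fell means an adjusted p under 0.05. Within-library ratios were taken of TPM. Positions and longest transcripts come from GENCODE release 29 (GRCh38), which has 96.2% of the listed gene identifiers; promoter windows come from RefSeq (GRCh38.p14), with 9 of 10 members matched, and the hairpin target from the study. No library pair had over 1% identical TPM.

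The members, lists and ratios were chosen with earlier results of these data known. The text names the 10 members, FAM111B, all other BCL2 family genes listed, and in each list the called genes (up to 6) and the most abundant gene. The markers of cell types were a list of their own. E2F1, BTRC, the uncalled 14-3-3 genes, overlapping genes and the genes in the closing section are outside that rule and were chosen after their values were seen. Alternatives were another pseudocount (0.1), no filter, 5 other scalings, removal of a length and expression trend, a replicate block and leaving out each library. Results for some genes of the lists are not reported here, and the list counts leave them out.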

Additional observations from a re-analysis of the deposited data

How the results depend on the processing

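Over all alternatives, 103 values of the gene counts, member counts, summed ratios and FAM111B stayed and 24 moved. Counts and ratios stayed when they were close to the value as deposited. Fold changes of FAM111B and single members stayed when direction and test outcome held, whatever their size. FAM111B at -2.93 with a pseudocount of 0.1 thus counted as stayed. With the trend removed, fold changes had to be close as well. Of the values of single members, pairs and lists, 380 stayed, 70 moved and 23 turned direction, while 4 kept their direction but no longer passed the test and 1 kept it and newly passed. Some that turned direction also gained or lost the test. Genes called higher and lower numbered 981 and 3409 with TPM as deposited, 2031 and 1799 under median-of-ratios factors, 1899 and 1910 under upper-quartile factors, 1694 and 1849 when quantile normalized, 2597 and 1305 with library medians subtracted, and 502 and 3818 with TPM rescaled to nuclear protein-coding genes, and they ranged over 918 to 1087 and 3362 to 3554 when 1 library was left out. The median gene then stood at 0.03, -0.01, -0.03, 0.17 and -0.57 in turn under the 5 scalings. Members called higher were 2 under median-of-ratios, upper-quartile and median-subtracted values, 0 under the coding rescale, and 0 to 2 with 1 library left out: BAX joined without control replicate 3, shFAM111B replicate 1 or shFAM111B replicate 2, and BAD dropped out without shFAM111B replicate 3. Members called lower were MCL1 and PMAIP1 under each of these. Members that rose were 3 under median-of-ratios, upper-quartile and quantile values and 4 with medians subtracted. Members that fell were 3, 3, 5, 2 and 7 under median-of-ratios, upper-quartile, quantile, median-subtracted and nuclear-coding values.

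Values that turned direction were as follows. BCL2L1 was 0.0362 under median-of-ratios and 0.12 under median-subtracted values. BID was 0.0528, 0.0129 and 0.14 under median-of-ratios, upper-quartile and median-subtracted values. BAK1 was 0.32, 0.28, 0.39 and 0.42 under median-of-ratios, upper-quartile, quantile and median-subtracted values, and 0.10 with the length and expression trend removed. BCL2L11 was 0.0848 and 0.10 under quantile and median-subtracted values and 0.43 with the trend removed. List medians turned to 0.0497, 0.0124, 0.15 and 0.16 (other BCL2 family) and 0.29, 0.25, 0.23 and 0.39 (apoptosome and caspases) under median-of-ratios, upper-quartile, quantile and median-subtracted values, to 0.05 (death receptor arm) under median-subtracted values, and to -0.0657 (transcription factors, 0.0595 as deposited) under the coding rescale. The cause was not tested.

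Under median-of-ratios, upper-quartile, quantile and median-subtracted values, 1 gene of the other BCL2 family and 1 of the apoptosome list was called lower in place of 2, and no transcription factor in place of 1. When 1 library was left out, HTRA2 (1.05) passed 2-fold without control replicate 3, BIRC2 (-1.02) without control replicate 3 or shFAM111B replicate 2, TNFRSF10A (-1.09 at lowest) without control replicate 2 or shFAM111B replicate 1, and YWHAQ (-1.02 at lowest) without control replicate 2, shFAM111B replicate 1 or shFAM111B replicate 2. TNFRSF10A was at 0.87, 0.74 and 0.65 TPM in shFAM111B and passed the filter only through the control libraries. Without the most abundant member of each side, the log2 change of pro-survival to BH3-only transcripts was -1.81 and that of pro-survival to all pro-death transcripts -1.57. FAM111B was -1.73 with the trend removed. With a replicate block, 996 genes were called higher and 3410 lower and the calls of the 10 members did not change. Same-numbered libraries correlated in their deviations by 0.054, 0.035 and 0.091, and the other combinations by -0.076 to 0.044. Only shFAM111B replicate 2 correlated best with another number, control replicate 1 (0.044). The numbers were not taken as pairs, and whether they were pairs cannot be told from these values. With the block the SE of BAX was 0.044 in place of 0.099.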

Other observations

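A further list of 12 genes of necroptosis and pyroptosis, the lytic forms of cell death, was added after the other lists had been seen. Of its 7 tested genes none passed 2-fold on the log2(TPM + 1) scale as deposited. At an adjusted p under 0.05 (limma), 2 rose (against 21.1% of all tested genes) and 3 fell (against 50.9%). CASP1, the caspase of the inflammasome, rose from 0.953 to 2.59 TPM (log2 fold change 0.89, limma adjusted p = 0.00382). It was 1.03 without control replicate 2 and up to 1.42 under other scalings, both over 2-fold. CASP1 read 0.60, 1.35 and 0.91 TPM in control and 2.49, 2.22 and 3.06 TPM in shFAM111B. It passed the filter only through the shFAM111B libraries, where it was high, so its p-value is no support for a rise. GSDMD, the pore-forming substrate of CASP1, rose from 62.9 to 75.2 TPM (0.25, limma adjusted p = 0.0381). GSDME, another gasdermin, changed by -0.33 (limma adjusted p = 0.00146), CASP4 by -0.26 (limma adjusted p = 0.00251) and NINJ1, which ruptures the plasma membrane, by -0.24 (limma adjusted p = 0.00665); these 3 turned direction under 3 or more of the 5 other scalings. RIPK3, the kinase of necroptosis, was listed at 0 in every library, and its partner MLKL stayed under 1 TPM.

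Single libraries held isolated values. TP73, a transcription factor, was listed at 10.1 TPM in shFAM111B replicate 2 and at 0.18 TPM or less in the other 5 libraries, so it did not enter the test. PTPRC, a blood marker, read 2.39 TPM in control replicate 3 and 0.13 TPM or less elsewhere.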
